A study of Mus musculus with 2 samples.

Results

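The proteasome and immunoproteasome genes described here are the 45 genes, of 32285 in the count tables, whose symbols begin with Psma, Psmb, Psmc, Psmd or Psme followed by a number. They were read in tumour CD8+ T cells: barcodes with at least 500 detected genes, a mitochondrial share of UMIs under 10%, at least 1 UMI of Cd3d, Cd3e or Cd3g and at least 1 UMI of Cd8a or Cd8b1. A UMI (unique molecular identifier) stands for 1 captured RNA molecule. The rule kept 6901 of 7866 barcodes of the control library and 8164 of 10111 of the NK-depleted library. Of the 45 genes, 5 were taken as immune subunits (Psmb8, Psmb9, Psmb10, Psme1 and Psme2) and 31 as constitutive subunits of the 26S proteasome. The other 9 are assembly chaperones, other activators, tissue-restricted subunits, a retrogene and a gene that shares only the symbol.

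The question behind the samples is whether removing NK cells alters the state of CD8+ T cells in tumours of MC38, a mouse colon carcinoma line. Both groups were wild-type (WT) mice whose tumours were taken on day 9 after implantation. The treatment label is PBS for the control group and a-NK1.1 antibody, which removes NK cells, for the other, while the control library name carries the abbreviation Iso. Live CD8+ T cells were sorted and each group gave 1 library with the 10x Genomics 5′ V2 chemistry. Mouse age, the number of mice and whether tumours were pooled are not given in the sources used here. With 1 library per group no difference between the libraries has a replicate check, so no test was run, and intervals are 95% and cover counting error only. Cells of 1 library are not replicates either, so comparisons between cells within a library describe that library.

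The proteasome degrades ubiquitin-tagged proteins and supplies most of the peptides shown on MHC class I. Its 20S core is a barrel of alpha and beta rings, capped by a 19S particle with an ATPase ring that unfolds substrates, or by activators such as PA28. Psmb5, Psmb6 and Psmb7 are the catalytic beta subunits of the constitutive core. In haematopoietic cells and under interferon, Psmb8 (LMP7), Psmb9 (LMP2) and Psmb10 (MECL-1) replace them when new cores are built, and PA28 alpha and beta (Psme1 and Psme2) are induced as well. Ifit3 is an interferon-induced gene and serves here as the sign of an interferon response, Mki67 as a sign of cycling, Tcf7 encodes the factor TCF1 of naive and progenitor-like T cells, and Havcr2 encodes the inhibitory receptor TIM-3.

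All 6 CD8 T cell markers were present in both libraries. Cd8a was at 877 CPM (counts per 1000000 UMIs of the same cells) in control and 695 CPM in NK-depleted cells, and Cd3e at 639 and 548. Cells were selected on the CD3 and CD8 genes, so the presence of these markers was set by the rule and is no check of the sort. Trac, the marker outside the rule, stood at 836 and 704 CPM. Among 24 markers of other cell types, Krt8 was at 0 in both libraries. Cd74 reached 98.1 and 68.1 CPM, Siglech 14.1 and 3.56 CPM and the B cell marker Ighm 55.7 and 39.4 CPM. The other B cell markers were near absent, with Cd79a at 0.05 and 0.10 CPM and Ms4a1 at 0 and 0.008 CPM. The NK cell markers differed in direction. Ncr1 stood at 0.17 and 0.02 CPM, whereas Klrb1c stood at 3.70 and 5.13 CPM and Fcer1g at 41.7 and 64.3 CPM. The cells held 106462391 and 125332343 UMIs, with medians of 11444 and 12289.5 UMIs per cell. The 2 libraries shared 391 barcodes, 26 of them among the cells analysed. Scrublet marked 0 and 2 cells as doublets. Its calls were not used, and doublets were kept, apart from an alternative given later. In summed counts, fewer cells of a type and less RNA per cell cannot be told apart.

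Promoter sequence is shown for genes on both sides of the immune and constitutive comparison. RefSeq windows of the GRCm38.p6 build (250 bases before to 50 after the annotated start) were found for 38 of the 45 genes and searched on both strands for 4 motifs. These were TTCNNNGAA (the gamma-interferon activated site shape), the interferon-stimulated response element (ISRE) shape bound by IRF factors (GAAA, any 2 bases, GAAA), TGACNNNGC (the antioxidant element shape bound by NRF1 and NRF2) and CCAAT. The first 2 can share the letters GAA, and a match is a description of letters, not a binding site. For 4 genes the stretch from 100 bases before to 20 after the start is printed 5′ to 3′ on the gene's strand, with the matched motif in capitals. Psmb8 is at chr17:34198095-34198214 (plus strand), Psme1 at chr14:55578394-55578513 (plus), Psmb5 at chr14:54617976-54618095 (minus) and Psmb6 at chr11:70525257-70525376 (plus).
Psmb8: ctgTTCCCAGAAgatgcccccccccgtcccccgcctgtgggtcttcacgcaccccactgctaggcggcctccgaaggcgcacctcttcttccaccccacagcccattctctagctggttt
Psme1: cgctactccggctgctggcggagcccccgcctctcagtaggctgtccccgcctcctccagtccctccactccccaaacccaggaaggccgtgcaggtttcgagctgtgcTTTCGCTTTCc
Psmb5: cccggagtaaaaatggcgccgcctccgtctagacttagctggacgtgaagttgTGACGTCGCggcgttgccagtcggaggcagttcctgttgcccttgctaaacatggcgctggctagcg
Psmb6: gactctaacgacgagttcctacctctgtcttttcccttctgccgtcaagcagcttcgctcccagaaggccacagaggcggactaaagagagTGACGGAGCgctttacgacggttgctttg
The Psmb8 window holds TTCCCAGAA 97 bases before the start, and the Psme1 window holds TTTCGCTTTC, the ISRE shape on the opposite strand, 9 bases after it. TTCNNNGAA was present in 8.3% of 32851 windows, in 1 of the 5 immune genes and in 1 of 25 constitutive genes with a window (Psmd2). The ISRE shape was present in 3.44% of all windows, in 1 immune gene and in 2 constitutive genes (Psmb3 and Psmd4). TGACNNNGC was present in 12.39% of all windows, in 0 of 5 immune genes and in 4 of 25 constitutive genes, namely Psmb5, Psmb6, Psmc6 and Psmd12. CCAAT was present in 37.41% of windows, in 1 immune gene (Psmb9) and in 10 of 25 constitutive genes. The searched windows of Psmb8, Psmb9 and Psme1 lie inside the gene positions given below, because the RefSeq start differs from the outermost annotated start. Sequence before that outer start was not searched for these genes, and the motif counts hold for the windows only.

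Immune subunits made up most of the catalytic beta transcripts in both libraries. Levels between genes are compared as UMI counts, which with a 5′ chemistry count each captured molecule once and are not scaled by transcript length. Psmb8, the immune counterpart of Psmb5, was the most abundant of all 45 genes, at 1006 CPM in control and 958 CPM in NK-depleted cells. Psmb5 stood at 153 and 161 CPM. Psmb9, the counterpart of Psmb6, stood at 343 and 297 CPM, against 159 and 191 CPM for Psmb6. Psmb10, the counterpart of Psmb7, stood at 270 and 240 CPM, against 100.5 CPM for Psmb7 in both libraries. The ratio of each immune subunit to its counterpart was thus 6.56 and 5.93 for Psmb8, 2.16 and 1.56 for Psmb9, and 2.68 and 2.39 for Psmb10. Counted together, the 3 immune genes held 79.7% of the UMIs of the 6 catalytic genes in the control library (Clopper-Pearson interval 79.53 to 79.87) and 76.75% in the NK-depleted library (76.58 to 76.92).

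The activator PA28 was also high. Psme1 stood at 694 and 667 CPM and Psme2 at 397 and 375 CPM. The other activators were lower: Psme3 (PA28 gamma, which is nuclear) at 40.2 and 46.1 CPM, and Psme4 (PA200) at 57.6 and 46.3 CPM. Constitutive subunits ranged in the control library from 49.2 CPM for Psmd3 to 369 CPM for Psmb1, both structural. All 45 genes together held 0.745% of UMIs in the control and 0.742% in the NK-depleted cells. The tissue-restricted subunits were near absent: Psma8, known from testis, had 6 UMIs in each library and Psmb11, known from thymic cortical epithelium, had 3 and 4. They are left out of the comparisons below.

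**Figure D1:**
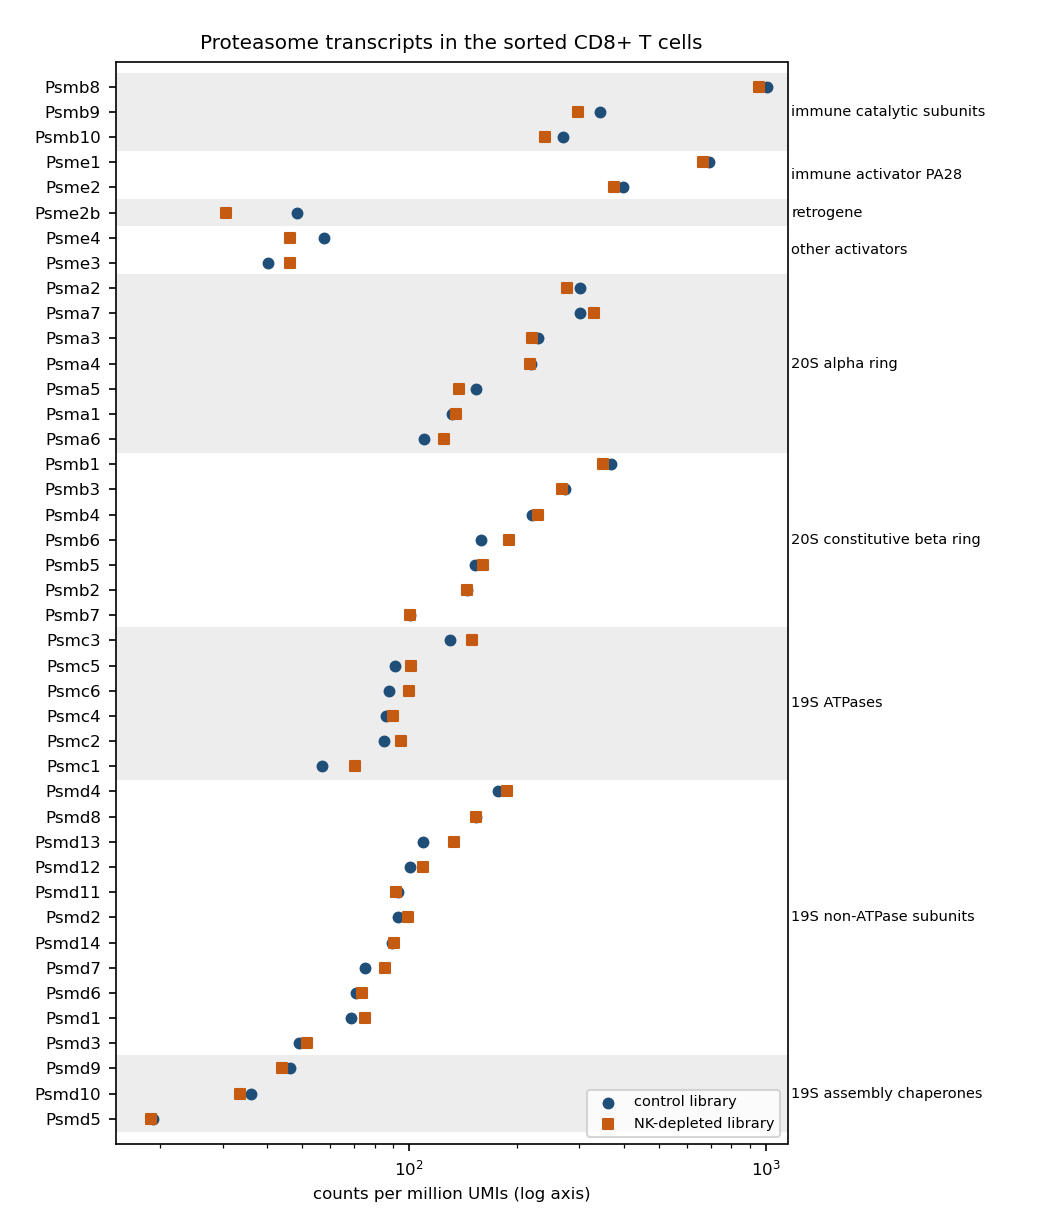
Level of each proteasome gene with at least 10 CPM that belongs to a subcomplex, an activator group or the retrogene, in CPM on a log axis, summed over the CD8+ T cells of the control library (circles) and the NK-depleted library (squares). Psmb8 and Psme1 lie above every constitutive subunit in both libraries.

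Genes of the pair Psmb8 and Psmb9 lie in the MHC class II region of chromosome 17 beside the peptide transporter genes: Psmb9 at 34181987-34187764 (minus strand), Tap1 at 34187553-34197225, Psmb8 at 34197721-34201454 and Tap2 at 34203527-34216321 (all plus), in GRCm38. Psme1 (55578123-55581529, plus) and Psme2 (55587441-55591113, minus) lie side by side on chromosome 14, and Psmb10 stands alone on chromosome 8 (105935735-105938444, minus).

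The share of immune catalytic UMIs also varied from cell to cell. Among cells with at least 10 catalytic UMIs (6019 control and 6902 NK-depleted cells), the median cell had an immune share of 81.8% and 78.4%. The range from the 5th to the 95th percentile was 63.2% to 95.7% and 60.0% to 93.8%, a spread that includes the sampling of few UMIs per cell. Cells with more constitutive than immune catalytic UMIs were 0.399% of these control cells and 0.840% of these NK-depleted cells.

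All 5 immune subunits had ratios above 1 in cells with an Ifit3 UMI over cells without one, and most constitutive subunits had ratios slightly below 1. Ifit3 was detected in 5405 control cells and not in 1496, and in 5281 and not in 2883 NK-depleted cells. The status is the presence of a UMI, not a measure of whether a cell expresses the gene. Psmb10 was at 294 CPM in Ifit3-positive and 174 CPM in Ifit3-negative control cells, a ratio of 1.69 (1.64 to 1.75). In NK-depleted cells it was at 263 and 190 CPM, a ratio of 1.39 (1.35 to 1.42). This was the largest Ifit3 ratio among the 5 immune subunits in both libraries. Psmb9 followed with ratios of 1.35 (1.31 to 1.39) and 1.29 (1.26 to 1.32). Psmb8 had ratios of 1.32 and 1.21, and Psme1 of 1.30 and 1.21. Psme2 stood lowest, at 403 against 377 CPM in control and 388 against 345 CPM in NK-depleted cells, ratios of 1.07 (1.04 to 1.09) and 1.13 (1.103 to 1.15).

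A gene was counted as higher where it was at least 25% higher and as lower where it was at least 20% lower, the same factor in both directions. By that size 4 of 5 immune subunits were higher in Ifit3-positive control cells (all except Psme2), against 10.8% of the 7699 genes of at least 10 CPM in either group. In the NK-depleted library 2 of 5 were higher (Psmb9 and Psmb10), against 5.38% of 7510 genes. The immune median log2 ratio was 0.40 and 0.28, beside -0.00 and -0.03 over all genes measured. None of the 31 constitutive subunits reached that size either way, beside 7.75% and 3.21% of genes lower, although 29 and 24 of them had ratios below 1. Their medians were -0.14 and -0.07. Psmb5 was at 149 against 172 CPM in control cells, a log2 ratio of -0.21, and -0.09 in NK-depleted cells. Psmb6 had -0.14 and -0.12, and Psmb7 -0.15 and -0.06. By the mean log2 ratio of both libraries, which ranks the constitutive subunits in each comparison here, the lowest were Psmd1, a scaffold of the 19S base, at -0.32 and -0.23, and Psmc1, an ATPase, at -0.20 and -0.28. The highest by that mean were the alpha subunits Psma5, at 0.08 in both, and Psma2, at -0.00 and 0.11.

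As a sum, immune over constitutive UMIs differed between Ifit3-positive and Ifit3-negative cells by 0.48 on the log2 scale in the control library (0.46 to 0.50) and 0.33 in the NK-depleted library (0.31 to 0.34). The immune share of catalytic UMIs was 81.0% against 73.3% in control cells and 78.3% against 73.0% in NK-depleted cells. Cells with no Ifit3 UMI thus still had most of their catalytic UMIs from immune subunits. Median depth was 11283 UMIs in positive and 11960 in negative control cells, and 12781 and 11307 in NK-depleted cells. The markers of other cell types summed to 302 and 382 CPM in positive and negative control cells, and to 270 and 234 CPM in NK-depleted cells. Their part in the Ifit3 difference was not tested.

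The relation was graded. Each cell of at least 5400 UMIs was drawn down to 5400 UMIs, which left out 624 control and 756 NK-depleted cells, and cells were grouped by Ifit3 UMIs (0, 1, 2 to 3, 4 to 7, and 8 or more). The immune share in control cells was 75.6%, 79.1%, 82.0%, 85.0% and 88.2% over these groups of 2090, 913, 1106, 1290 and 878 cells. In NK-depleted cells it was 75.01%, 78.6%, 80.5%, 83.0% and 85.0% over 3756, 1316, 1191, 828 and 317 cells. Summed immune subunits ran from 2259 to 3925 CPM between the outer groups in control cells, and from 2280 to 3552 CPM in NK-depleted cells. The constitutive sum ran the other way, from 4445 to 4054 CPM and from 4474 to 4229 CPM. Psmb10 had the widest span as a fold among the immune subunits, from 193 to 529 CPM in control and from 206 to 431 CPM in NK-depleted cells. Psme2 had the narrowest as a fold, from 368 to 449 CPM and from 348 to 433 CPM.

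At 0 Ifit3 UMIs the libraries' shares had overlapping intervals (74.95 to 76.16% and 74.56 to 75.46%), and at 8 or more they did not (87.65 to 88.76% and 83.92 to 86.07%). Other measures moved along the same groups. The share of cells with an Mki67 UMI went from 32.1% at 0 to 14.1% at 8 or more in control and from 41.8% to 17.4% in NK-depleted cells. Median depth before drawing went from 14846 to 8862.5 UMIs and from 14602 to 9023, and the mitochondrial share from 2.68% to 1.60% and from 2.99% to 2.21%. The part of depth and mitochondrial share in the gradient was not tested. For Mki67, the Ifit3 difference in the immune over constitutive quotient was 0.42 within Mki67-positive and 0.53 within Mki67-negative control cells, and 0.30 and 0.33 in NK-depleted cells.

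**Figure D2:**
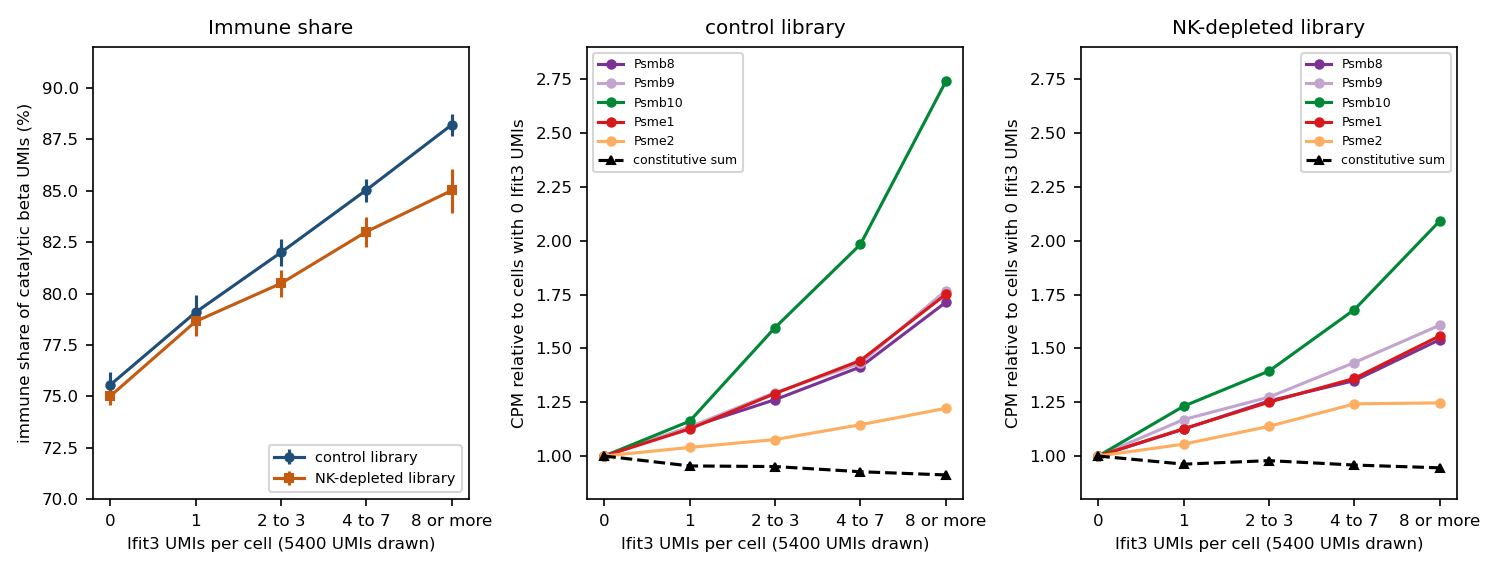
Cells drawn to 5400 UMIs and grouped by Ifit3 UMIs: the immune share of catalytic beta UMIs in percent with Clopper-Pearson 95% intervals (left, axis from 70%), and the CPM of each immune subunit and of the constitutive sum relative to cells with 0 Ifit3 UMIs in the control (middle) and NK-depleted (right) library. Psmb10 has the steepest line over the groups and Psme2 the flattest among the immune subunits, while the constitutive sum slopes slightly down.

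In cells with an Mki67 UMI nearly all constitutive subunits had ratios above 1, while the immune subunits lay on both sides of 1. Mki67 was detected in 2326 control and 3718 NK-depleted cells. Psmd1 was at 82.9 against 54.0 CPM in control cells and 85.4 against 58.9 CPM in NK-depleted cells, log2 ratios of 0.62 and 0.54. Psmc1 had log2 ratios of 0.50 and 0.54. The lowest by the mean of both libraries were Psmb1, at 0.04 and -0.06, and Psma5, at 0.05 and 0.03. Among the catalytic subunits, Psmb6 had 0.38 and 0.36, Psmb5 0.35 and 0.28, and Psmb7 0.27 and 0.33.

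In all, 31 and 30 of the 31 constitutive ratios lay above 1, with medians of 0.25 and 0.26 beside 0.03 and 0.06 over all genes measured. At least 25% higher were 7 and 10 of 31, against 17.8% and 20.9% of all genes, so most of the group was higher by less than 25%. By subcomplex, the ATPases had medians of 0.31 and 0.34, the non-ATPase subunits 0.27 and 0.32, the constitutive beta ring 0.24 and 0.26, and the alpha ring 0.19 and 0.16. None of the 5 immune subunits passed either size, beside 10.2% and 8.84% of all genes lower. Psmb10 was at 242 against 297 CPM and 223 against 267 CPM, log2 ratios of -0.30 and -0.26. Psme1 was at 626 against 763 CPM and 622 against 738 CPM, log2 ratios of -0.29 and -0.25. Psmb8 stood at -0.05 and 0.01, Psme2 at -0.05 and -0.07, and Psmb9 at 0.07 and 0.13. Psmb10 and Psme1 were thus apart from Psmb8, Psmb9 and Psme2 in both libraries.

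The immune over constitutive quotient differed by -0.33 in control (-0.34 to -0.32) and -0.28 in NK-depleted cells (-0.30 to -0.27), and the immune share was 77.5% against 82.0% and 75.2% against 79.3%. Mki67-positive cells were deeper, with medians of 18516 against 9786 UMIs and 17728.5 against 9770.5 UMIs. Drawing every cell to 5400 UMIs gave -0.27 and -0.24. The sums of other cell type markers were 345 and 291 CPM in positive and negative control cells and 236 and 295 CPM in NK-depleted cells, and their part was not tested. Within Ifit3-negative cells the quotient difference was -0.23 and -0.25. There Psmb9 was higher in Mki67-positive cells, at 291 against 246 CPM in control (log2 ratio 0.24) and 265 against 218 CPM in NK-depleted cells (0.28), and Psmb8 had 0.14 in both.

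By Havcr2, Psmb10 and Psme1 parted from the other immune subunits. Havcr2 was detected in 2658 control and 3876 NK-depleted cells. Psmb10 was at 222 CPM in Havcr2-positive and 331 CPM in Havcr2-negative control cells, a log2 ratio of -0.57. In NK-depleted cells it was at 217 and 275 CPM, a log2 ratio of -0.34. Psme1 was at 612 against 798 CPM and 613.5 against 748 CPM, log2 ratios of -0.38 and -0.29. Psme2, its partner in PA28, was at 405 against 388 CPM and 383 against 363 CPM, log2 ratios of 0.06 and 0.08. Psmb8 had -0.12 and 0.02, and Psmb9 -0.06 and 0.06. At least 20% lower were Psmb10 and Psme1 in control cells and Psmb10 in NK-depleted cells, 2 and 1 of 5, beside 15.5% and 9.27% of all genes.

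Nearly all constitutive ratios again lay above 1 (30 and 31 of 31), with medians of 0.24 and 0.19 beside 0.00 and 0.08 over all genes, and 5 and 4 of 31 at least 25% higher beside 16.4% and 18.5% of all genes, a share near the background. The highest by the mean of both libraries were Psmd1, at 0.65 and 0.40, and Psmd13, a lid subunit, at 0.46 in both, while Psmc1 had 0.29 and 0.50. Psmb5 had 0.40 and 0.23, Psmb6 0.37 and 0.29, and Psmb7 0.30 and 0.27. The lowest by that mean were Psmd4, a ubiquitin receptor, at -0.00 and 0.07, and Psma5 at 0.01 and 0.07. The immune over constitutive quotient differed by -0.42 (-0.43 to -0.40) and -0.26 (-0.27 to -0.25). The immune share was 77.0% against 83.0% and 75.4% against 78.9%. Depth differed here too, with medians of 17841.5 against 9226 and 16234.5 against 10038 UMIs, and equal depth gave -0.34 and -0.17. Sums of other cell type markers were close, at 312 and 326 CPM and at 254 and 266 CPM, but the marker lists differed in opposite directions. Dendritic cell markers summed to 211 against 150 CPM in control and 149 against 71.6 CPM in NK-depleted cells. B cell markers summed to 34.9 against 82.2 CPM and 21.8 against 66.6 CPM. That sum is almost all Ighm, since Cd79a and Ms4a1 were near absent, so it is no count of B cells. Their part in the Havcr2 values was not tested.

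The Havcr2 ratios of Psmb8 and Psmb9 had opposite directions by Ifit3 status in the control library. Within Ifit3-positive cells Psmb8 was at 1006 against 1119 CPM (log2 ratio -0.15), and within Ifit3-negative cells at 846 against 714 CPM (0.24). Psmb9 had -0.07 and 0.26. Psmb10 was at 238 against 359 CPM within Ifit3-positive cells (-0.60) and at 172 against 176 CPM within Ifit3-negative cells (-0.04). In the NK-depleted library the Psmb10 values were closer, at -0.34 and -0.27, and Psmb9 had 0.04 and 0.18. No test of these differences between strata was possible with 1 library per group.

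**Figure D3:**
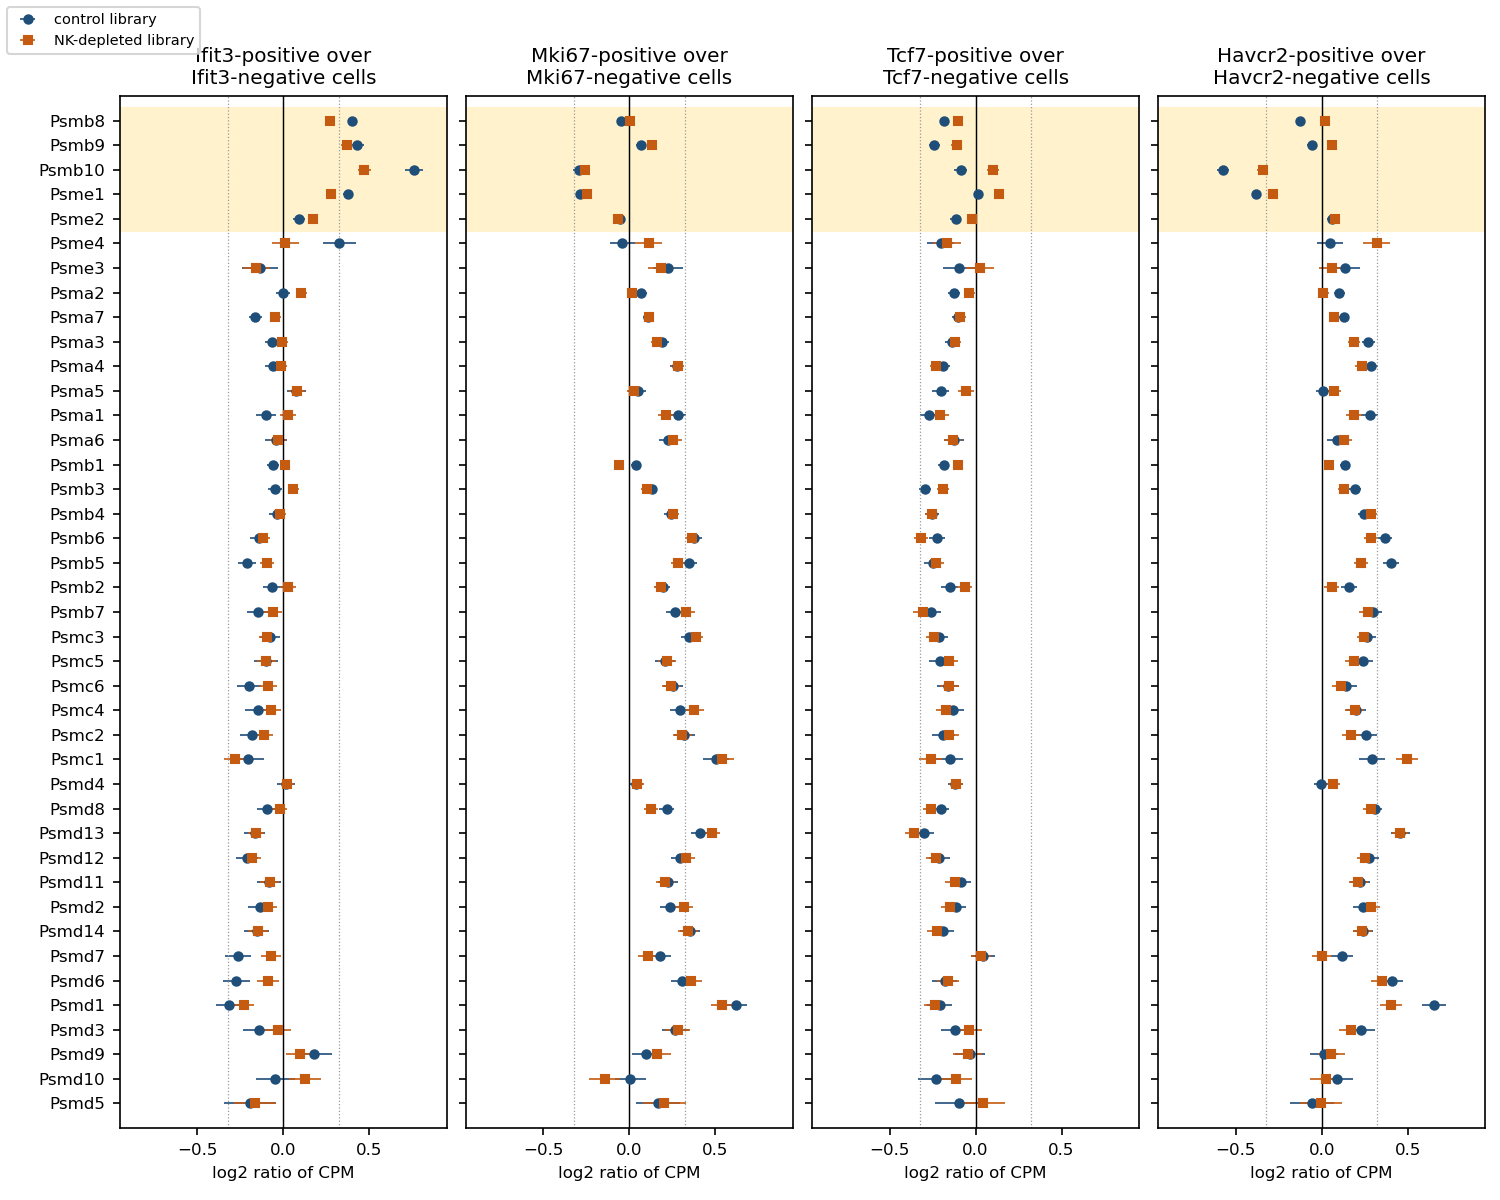
Log2 ratio of CPM in cells with over cells without a UMI of Ifit3, Mki67, Tcf7 or Havcr2, for each proteasome gene of at least 10 CPM apart from Psme2b and Psmc3ip, in the control (circles) and NK-depleted (squares) library, with exact 95% intervals for counting error. The shaded band holds the 5 immune subunits, dotted lines mark 25% higher and 20% lower, and Psmb10 and Psme1 lie left of the other immune subunits in the Mki67 and Havcr2 panels.

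In Tcf7-positive cells nearly all constitutive subunits had ratios below 1, almost all by less than 20%. Tcf7 was detected in 1991 control and 2561 NK-depleted cells. Of the 31 constitutive ratios 30 lay below 1 in each library, with medians of -0.19 and -0.16 beside -0.03 and -0.03 over all genes. At least 20% lower were 0 and 1 (Psmd13, -0.36 in NK-depleted and -0.30 in control cells), beside 11.7% and 12.7% of all genes lower. Psmb7 was at 88.7 against 106 CPM and 86.6 against 107 CPM, log2 ratios of -0.26 and -0.31. Psmb5 had -0.25 and -0.23, and Psmb6 -0.22 and -0.32. The exception above 1 was Psmd7, a lid subunit, at 0.04 and 0.03, and the next by the mean of both libraries was Psmd3, at -0.12 and -0.04. Psmb8 had -0.18 and -0.10, Psmb9 -0.24 and -0.11, Psme2 -0.12 and -0.02, Psme1 0.02 and 0.14, and Psmb10 -0.09 and 0.10.

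The Tcf7 quotient was 0.06 in control (0.05 to 0.08) and 0.16 in NK-depleted cells (0.14 to 0.17). At equal depth the control value was -0.0017 and as a mean over cells -0.026, so its direction did not hold. Tcf7-positive cells had the highest sums of other cell type markers, at 469 against 243 CPM in control and 372 against 205 CPM in NK-depleted cells, and their part in these values was not tested. Median depth was 12330 against 11161 and 11719 against 12546 UMIs. Crossed with Havcr2, the Tcf7-negative, Havcr2-positive cells (2211 and 3200) were set against the Tcf7-positive, Havcr2-negative cells (1544 and 1885). Their immune over constitutive quotient differed by -0.37 and -0.32, with the constitutive sum 0.36 and 0.29 higher on the log2 scale and the immune sum at -0.01 and -0.03. No equal-depth value is given for this crossed contrast, and the part of depth in it was not tested.

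**Figure D4:**
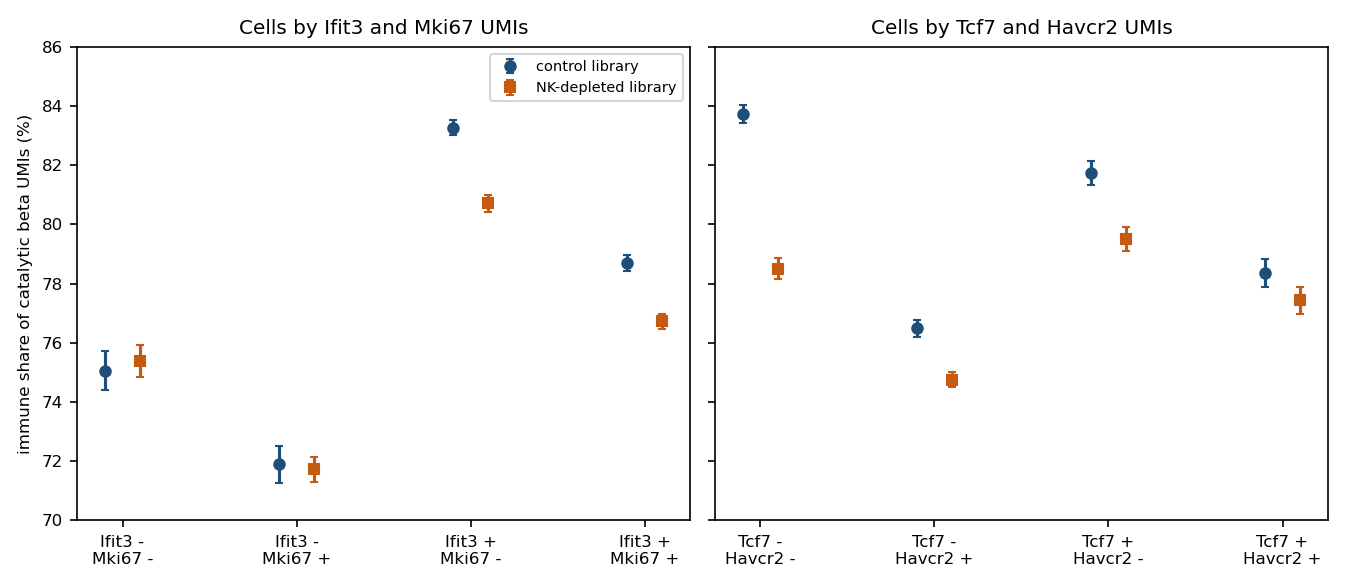
Immune share of catalytic beta UMIs in percent, with Clopper-Pearson 95% intervals, in cells grouped by Ifit3 and Mki67 UMIs (left) and by Tcf7 and Havcr2 UMIs (right) in the control (circles) and NK-depleted (squares) library, axis from 70%. The lowest shares are those of Ifit3-negative, Mki67-positive cells, at 71.9% and 71.7%, and the libraries lie closest in the Ifit3-negative groups of the left panel.

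Between the libraries no immune or constitutive subunit passed the size for a call by total UMIs. The ratios of Psmb9 and Psmb10 lay below 1 and those of the ATPases above 1 under each of 3 scalings, whereas those of Psmb8, Psme1 and Psme2 lay below 1 by total UMIs only. Psmb9 had the lowest ratio of NK-depleted over control among them, 0.865 (0.853 to 0.878). Psmb10 had 0.889 (0.875 to 0.904), Psme2 0.943, Psmb8 0.952 and Psme1 0.960. All 5 lay below 1, with a median log2 ratio of -0.08, beside -0.06 over all 7624 genes measured. Of the 31 constitutive subunits 22 lay above 1 and 9 below, with a median of 0.07. Of the immune subunits 0 of 5 and of the constitutive subunits 0 of 31 were called, beside 6.27% of genes higher and 11.9% lower. The counts above and below 1 depended on the scaling of the libraries. TMM and median-of-ratios factors shifted all log2 ratios by 0.085 and 0.099, after which 3 of 5 immune subunits (Psmb8, Psme1 and Psme2) lay above 1 and 29 of 31 constitutive subunits did, with Psmb6, Psmc1 and Psmd13 at least 25% higher.

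All 6 ATPases lay above 1 under each scaling. Psmc1 had the highest constitutive ratio, 1.24, at 56.9 CPM in control and 70.4 CPM in NK-depleted cells, followed by Psmd13 at 1.22 (109 and 133 CPM). Among the catalytic subunits Psmb6 had 1.20 (1.18 to 1.23), Psmb5 1.05, and Psmb7 had 100.5 CPM in both. The lowest were Psma5 at 0.892 (154 and 138 CPM) and Psma2 at 0.918 (301 and 276 CPM). The alpha ring had a median of -0.01, the constitutive beta ring 0.01, the non-ATPase subunits 0.08 and the ATPases 0.17.

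A quotient within a library does not depend on scaling. Immune over constitutive UMIs were lower in the NK-depleted library by -0.15 on the log2 scale (-0.16 to -0.14). The share of immune catalytic UMIs was lower by 2.95 percentage points. Within Ifit3-positive cells the quotient difference was -0.14 (-0.15 to -0.13), and within Ifit3-negative cells it was 0.02 (-0.00 to 0.03). Within the other strata it was lower in NK-depleted cells in each: -0.09 and -0.14 for Mki67-positive and Mki67-negative, -0.08 and -0.18 for Tcf7, and -0.07 and -0.22 for Havcr2. Of the immune subunits, Psmb9 was lower in both Ifit3 strata, at 320 against 362 CPM (-0.18) in positive and 248 against 269 CPM (-0.12) in negative cells. Psmb10 differed in direction, at -0.16 in Ifit3-positive and 0.13 in Ifit3-negative cells. Psmb8 likewise had -0.06 and 0.07, but its value in Ifit3-positive cells was smaller than the scaling shift of 0.085. Other cell type markers and depth differ between the libraries as given above, and their part was not tested beyond the alternatives in the closing section.

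**Figure D5:**
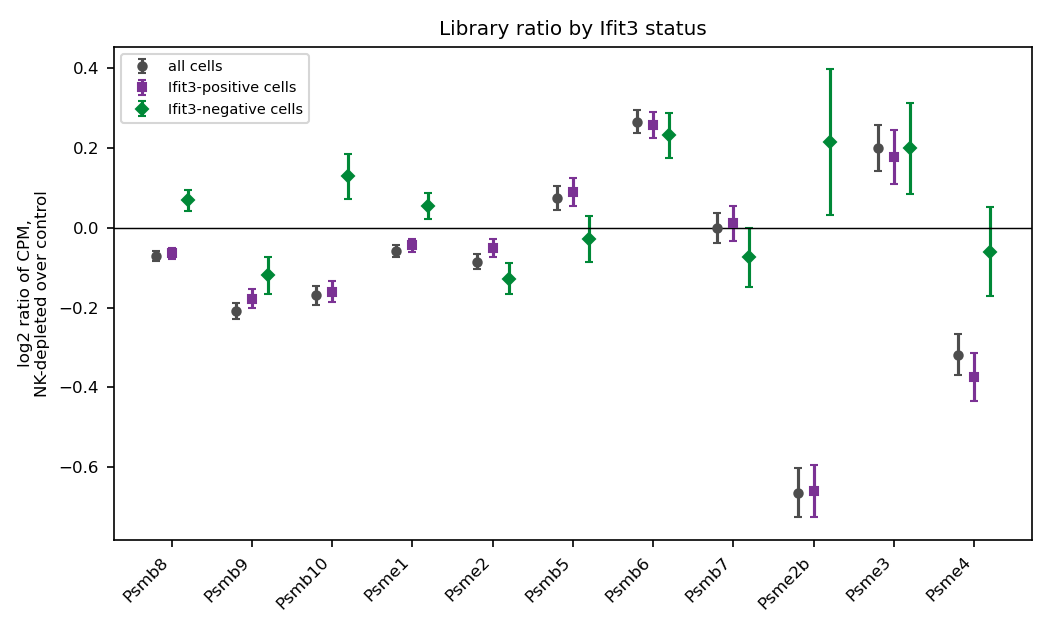
Log2 ratio of CPM, NK-depleted over control, for the immune subunits, their constitutive counterparts and the activators in all cells, Ifit3-positive cells and Ifit3-negative cells, with exact 95% intervals for counting error. By total UMIs, Psmb8, Psmb10 and Psme1 lie below 0 in Ifit3-positive and above 0 in Ifit3-negative cells (with the scaling shift of 0.085, Psmb8 and Psme1 lie above 0 in both), and Psmb6 lies above 0 in every set.

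The other activators differed from PA28. Psme4 was lower in the NK-depleted library, at a ratio of 0.802 (0.774 to 0.832). In control cells it was at 60.1 CPM with and 48.0 CPM without Ifit3, a log2 ratio of 0.33, past the size for a higher call, and in NK-depleted cells at 46.4 and 46.0 CPM, 0.01. Its Mki67 ratios were -0.04 and 0.11, its Tcf7 ratios -0.20 and -0.16 and its Havcr2 ratios 0.05 and 0.32. Psme3 was higher in the NK-depleted library, at a log2 ratio of 0.20. Its direction was that of most constitutive subunits by Ifit3 (-0.13 and -0.16) and Mki67 (0.22 and 0.18), and had -0.09 and 0.03 by Tcf7 and 0.13 and 0.06 by Havcr2.

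Psme2b, a retrogene copy of Psme2, had the largest Ifit3 ratios among those of the 45 genes that reached 10 CPM, and its counts are uncertain. It was at 56.6 against 16.9 CPM in control cells and 35.8 against 19.7 CPM in NK-depleted cells, ratios of 3.34 (3.003 to 3.73) and 1.82 (1.69 to 1.97). Between the libraries its ratio was 0.631 (0.605 to 0.658). The copy lies at chr11:48945354-48946190 (minus strand, GRCm38), overlaps the end of 9930111J21Rik1 (48946150-48979398, minus) and lies inside Gm12185 (48904656-48992226, minus). Those genes had Ifit3 log2 ratios of 1.54 and 0.90, and of 2.55 and 1.47. Reads of the copy, of these genes and of Psme2 may not be told apart by the counting. Counted together, Psme2 and Psme2b had Ifit3 log2 ratios of 0.22 in both libraries, above those of Psme2 alone and below those of the other immune subunits.

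The 19S assembly chaperones were low and varied little: Psmd9 stood at 46.4 and 44.1 CPM, Psmd10 (gankyrin) at 35.9 and 33.6 CPM and Psmd5 at 19.1 and 18.8 CPM. None passed the size used above in any of these comparisons. Psmc3ip, a recombination factor and no proteasome subunit, had the largest Mki67 ratios among those of the 45 genes that reached 10 CPM, 3.48 and 3.20, at 17.8 against 5.12 CPM and 21.01 against 6.56 CPM.

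Genes around the proteasome were taken from fixed lists of peptide loading partners, assembly genes, ubiquitin factors and transcription factors, the last given by single genes. By Ifit3, Nlrc5, the transactivator of MHC class I genes, was at 105 against 61.0 CPM in control and 85.7 against 63.4 CPM in NK-depleted cells, log2 ratios of 0.78 and 0.44. Nfe2l1 (NRF1), which induces constitutive subunits, had 0.02 and -0.02. Of 5 peptide loading partners, 3 and 1 were higher, with Tapbp at 0.65 and 0.44 and Tap1 at 0.57 and 0.30, and 0 were lower. Of 6 assembly and inhibition genes, 0 were higher and 1 and 0 lower. Of 10 ubiquitin and proteasome-bound factors, 0 were higher and 1 and 0 lower.

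By Mki67, among the ubiquitin and bound factors 3 and 4 of 10 were at least 25% higher and 0 lower, including the proteasome deubiquitinases Uchl5 (0.77 and 0.93) and Usp14 (0.45 and 0.59) and the segregase Vcp (0.41 and 0.52). Of the assembly genes 0 and 2 of 6 were higher, and of the peptide loading partners 0 of 5 were called in either direction. The interferon regulatory factor gene Irf1 was lower, at -0.37 and -0.42. By Havcr2, Irf1 was lower at -0.46 and -0.48 and Nfe2l2 (NRF2) at -0.89 and -1.09, and 3 of the 10 ubiquitin factors were higher in each library. By Tcf7, Irf1 (0.49 and 0.63) and Nfe2l2 (0.62 and 0.83) were at least 25% higher in both libraries. Between the libraries, by total UMIs, Psmg1 and Vcp were higher in NK-depleted cells, at 0.40 and 0.38. Irf1, Irf9 and Tap2 were lower by total UMIs, at -0.39, -0.34 and -0.37. Those lower calls depended on the scaling. With the shift of 0.085 or 0.099, Irf1, Irf9 and Tap2 stayed below 0 but missed the size for a lower call. The backgrounds for these counts are those given with each comparison above, with 9.49% and 9.87% of genes higher by Tcf7.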

How the data were processed

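Expression was measured in 2 libraries of sorted tumour CD8+ T cells, and the deposited values are raw UMI counts. The matrices were written by Cell Ranger 6.1.2, per the file headers. The mm10 build and Seurat 4.0.6 are named in the submitters' processing notes. Barcodes and gene names are read as deposited.

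Counts were summed over the cells of each group and expressed as CPM, the gene's count per 1000000 UMIs of those cells. Ratios carry exact conditional binomial 95% intervals. The log2 quotient of immune over constitutive UMIs carries a Woolf (normal approximation) interval, in place of the exact one first planned, and shares carry Clopper-Pearson intervals. Genes of at least 10 CPM in either group were measured, and a call needed a ratio at least 25% higher or 20% lower. Scrublet in scanpy 1.11.5 scored doublets, and the highest 8% were left out in an alternative only. Scaling factors came from edgeR 4.0.16 under R 4.3.3, for a shift of the libraries only. Other steps used Python 3.11.15, numpy 2.4.6, scipy 1.17.1 and pandas 2.3.3. Scripts were tested on simulated data. Positions come from the GRCm38 annotation, which is the mm10 build.

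Members, lists and comparisons were chosen with earlier results of these data known. Named are the 5 immune subunits, Psmb5, Psmb6, Psmb7, Psme3 and Psme4, the 2 highest and 2 lowest constitutive ratios per comparison by the mean log2 ratio of both libraries, and genes under 10 CPM once. Genes of the pathway lists, Psme2b and Psmc3ip were named after their values were seen. Alternatives are in the closing section. With no label for single animals, no spread between animals can be stated. One gene of the transcription factor list is not reported here, nor are counts over that list.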

Additional observations from a re-analysis of the deposited data

Results flagged for a closer look

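A status ratio lay on opposite sides of 1 in the 2 libraries, with counting intervals that exclude 1 in both, for 5 subunits. The difference between the libraries was not tested in any of them, and all values are small. Psmb8 by Havcr2 had a log2 ratio of -0.12 in control and 0.021 in NK-depleted cells, and Psmb9 by Havcr2 had -0.058 and 0.061. Psmb10 by Tcf7 had -0.087 and 0.10. The constitutive subunit Psmb3 had -0.050 and 0.059 by Ifit3, and Psmb1 had 0.038 and -0.060 by Mki67.

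Barcodes that passed the quality limits but had no UMI of a CD3 or of a CD8 gene were not used in the comparisons. They numbered 262 in the control and 189 in the NK-depleted library, with median depths of 1003.5 and 1020 UMIs. The immune share of their catalytic UMIs was 79.2% and 82.3%, by point value near that of the analysed cells in control and above it in the NK-depleted library. These shares rest on few barcodes of low depth and are given without an interval, so their counting error is larger. What these barcodes hold was not tested.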

How the results depend on the processing

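Over 9 quotients, 91 alternative values were computed: 37 moved by less than their counting interval, 52 moved by more and kept their direction, and 2 reversed, both for Tcf7 in control cells. At least 1000 genes per cell, 2 or more UMIs of the CD3 and CD8 genes, and a mitochondrial share under 5% moved no quotient past its interval. All values here are log2. For NK-depleted against control (-0.15), the changed values were -0.19 with every cell drawn to 5400 UMIs, -0.17 without cells holding other cell type markers, -0.20 as a mean over cells, -0.16 as the difference of member medians and -0.16 without Psmb8.

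In pairs for control and NK-depleted cells, drawing to 5400 UMIs gave 0.56 and 0.39 for Ifit3, -0.27 and -0.24 for Mki67, and -0.34 and -0.17 for Havcr2; for Tcf7 in control cells it gave -0.0017, reversed. Without the 8% highest doublet scores, Mki67 gave -0.36 and -0.31, Tcf7 0.081 and 0.19, Havcr2 -0.46 and -0.28, and Ifit3 in NK-depleted cells 0.34. Leaving out every cell with a UMI of any of the 24 other cell type markers kept 2517 and 3179 cells (36.5% and 38.9%). Deeper cells are more likely to hold such a UMI, and the part of depth in this setting was not tested. Without those cells Mki67 gave -0.38 and -0.31, Tcf7 0.13 and 0.19, Havcr2 -0.48 and -0.29, and Ifit3 in control cells 0.54. The mean over cells gave 0.55 and 0.35 for Ifit3, -0.29 and -0.25 for Mki67, -0.026 (reversed) and 0.13 for Tcf7, and -0.23 for Havcr2 in NK-depleted cells. Medians of member ratios gave 0.54 and 0.34 for Ifit3, -0.31 and -0.32 for Mki67, -0.37 and -0.17 for Havcr2, and 0.14 for Tcf7 in NK-depleted cells. Requiring 2 or more UMIs of the status gene gave 0.52 and 0.38 for Ifit3, -0.41 and -0.34 for Mki67, and -0.45 and -0.30 for Havcr2.

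Chosen after seeing the data, leaving out Psmb8 gave -0.37 and -0.34 for Mki67, 0.10 and 0.21 for Tcf7, and -0.46 and -0.32 for Havcr2. Ifit1 in place of Ifit3 gave 0.42 and 0.25. That setting, and the count of Psme2 with Psme2b in the report, were also chosen after seeing the data. The cause of these shifts was not tested.

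Between the libraries, the summed immune subunits (-0.10) reversed to 0.0022 under median-of-ratios factors and stood at -0.01 under TMM, -0.14 with cells drawn to 5400 UMIs and -0.16 as a mean over cells. The summed constitutive subunits (0.05) stood at 0.14 under TMM and 0.15 under median-of-ratios factors. Immune and constitutive subunits called between the libraries numbered 0, and 3 under both TMM and median-of-ratios factors, which shift all genes. No paired analysis was possible because each group has 1 library, and for the same reason no library could be left out. Psma8 and Psmb11, with 3 to 6 UMIs per library, allow no comparison.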
